A study of Enchytraeus crypticus with 9 samples.

Results

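The 300 gene probes whose signal differed least over the 9 arrays of this study were chosen from the 43750 gene probes of a custom Agilent array for Enchytraeus crypticus, a worm of the soil (an annelid) that serves in ecotoxicity tests. A probe was considered where the scanner software called its signal positive and significant on all 9 arrays, which held for 27935 probes. Its level y was the log2 processed intensity minus the median of these 27935 probes on the same array, so that a y of 1 is a doubling over the array median. The 300 probes with the highest mean y in Control were left out, and 19402 of the remaining probes were also called well above background on every array. The 300 probes with the smallest standard deviation (SD) of y over the 9 arrays were taken from these 19402 eligible probes, or 1.55% of them. Since y on all 9 arrays made the choice, the levels and spreads given for these probes are a description. The counts of probes called in tests between groups, which use the same arrays, are given beside the share of all probes tested, and nothing is read from them.

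The arrays came from 3 groups of 3. UV Dose 2 worms received 8100 J/m2 of ultraviolet (UV) light, UV Dose 1 worms received 7500 J/m2, and Control worms were kept under laboratory light. All 3 groups were adults with a clitellum, kept for 5 days in reconstituted water rather than in soil, and each array held the RNA of a separate pool of 40 whole worms, labelled with a single dye. A pool averages all cells of whole animals, so that fewer cells of a type and less RNA per cell cannot be told apart. No gene names accompany the probes in the files used here, and the labelled tissue could not be set against marker genes. The labels of the UV Dose 2 samples disagree with each other, since one of them gives 8100 J/m2 under the name of dose 1, and the groups here follow the titles.

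Transcripts whose level hardly differs between samples are the usual internal references of expression studies. In quantitative PCR they are the reference genes to which other genes are compared, and they are often taken from the cytoskeleton, the ribosome or central metabolism, whose products every cell needs. In array studies a scaling between samples takes some set of transcripts, or all of them, as unvarying. UV light damages DNA directly and generates reactive oxygen species, and it is known to induce repair and stress response genes in many animals. Which of those classes the 300 probes belong to could not be determined here, because each probe carries only the identifier of an assembled contig or of a single sequencing read. All 43750 identifiers are distinct, and whether any of them belong to the same gene was not tested, so the 300 are counted as probes and not as genes. No probe sequences were used here.

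Between 21285 probes (Control replicate 2) and 31912 probes (Control replicate 3) were well above background on single arrays, and the array medians lay between 5.48 and 5.97 on the log2 intensity scale. Precision is limited throughout by having 3 arrays in a group. The arrays were spread over 4 slides. UV Dose 2 replicates 1 to 3 shared slide 4 with UV Dose 1 replicate 1, UV Dose 1 replicates 2 and 3 shared slide 2 with Control replicate 2, and Control replicates 1 and 3 each lay on a slide of their own. Control replicate 3 was also scanned on another day than the other 8 arrays.

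The SD of the 300 probes ranged from 0.041 to 0.125 on the log2 scale, with a median of 0.111, against a median of 0.336 over the 19402 eligible probes. On the linear scale, the highest of the 9 values of a probe was between 1.09 and 1.39 times the lowest, with a median of 1.26 times, whereas the median over the eligible probes was 2.05 times. Their SD pooled within groups had a median of 0.101 (eligible probes, 0.285), and the 3 group means of a probe lay 0.13 apart at the median (eligible probes, 0.40). The choice does not end at a gap in the data. The 3 last probes inside had SD of 0.12508, 0.12508 and 0.12513, and the 3 first probes outside had 0.12522, 0.12527 and 0.12536.

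The stable probes were brighter than the probes they were chosen from. Their mean y had a median of 3.67 and quartiles of 2.12 and 5.54, and that of the eligible probes a median of 1.24 and quartiles of -0.31 and 3.52. As processed intensity, the median was 654 for the 300 probes and 122 for the eligible probes. When the eligible probes were divided into 5 classes of equal size by mean y, the 300 probes made up 0.258% of the dimmest class (10 probes), then 0.361% (14 probes), 1.26% (49 probes), 2.55% (99 probes) and 3.30% of the brightest class (128 probes). The SD of all eligible probes was lower in brighter classes as well, with medians of 0.390, 0.371, 0.348, 0.308 and 0.261 from dimmest to brightest. Spearman's rho of SD with mean y was -0.28 over the eligible probes (across probes, which are not independent replicates and share the same 9 arrays).

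**Figure D1:**
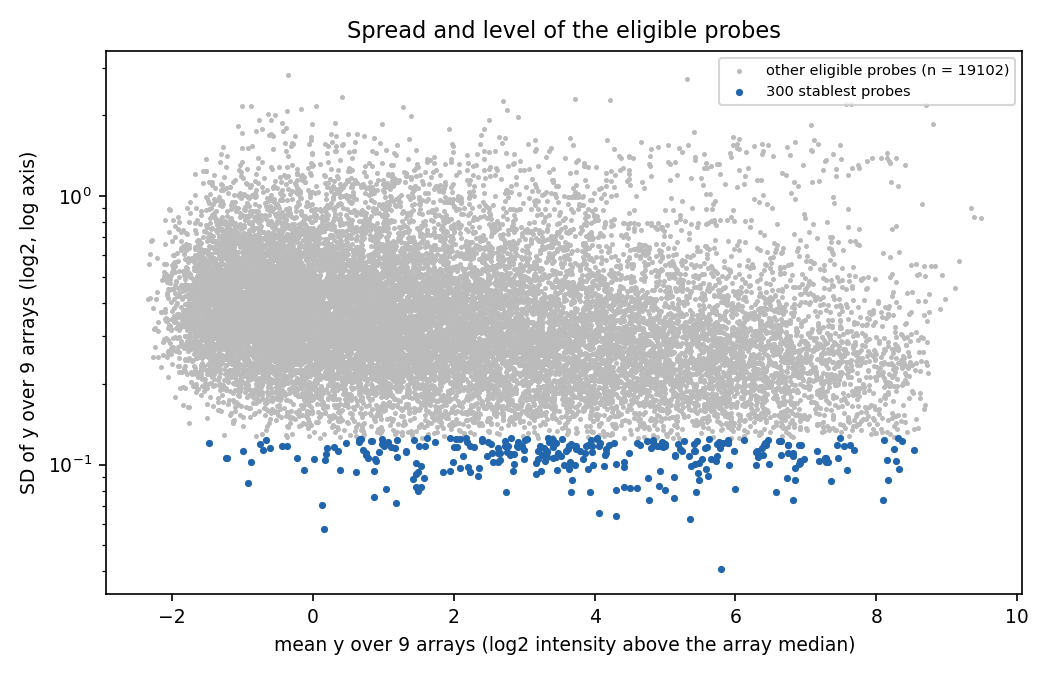
SD of y over the 9 arrays (log2, on a logarithmic axis) against mean y (log2 intensity above the array median) for the 300 stablest probes (blue) and the other 19102 eligible probes (grey). The blue points end at 0.125 on the vertical axis and lie mostly to the right, with a median mean y of 3.67 against 1.24 for all eligible probes.

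The smallest SD belonged to GYUW2K402G00G5, a single read with 55.3 times the intensity of the array median. Its y was 5.83, 5.81 and 5.86 in UV Dose 2, 5.77, 5.73 and 5.74 in UV Dose 1, and 5.80, 5.78 and 5.78 in Control. Its 9 arrays lay within 1.09 times of each other, which made it the most even of all 27856 probes tested, and yet its 3 groups did not overlap, with UV Dose 2 highest and UV Dose 1 lowest. The next probe, contig00176, lay close to the array median. Its y was 0.18, 0.21 and 0.25 in UV Dose 2, 0.09, 0.14 and 0.20 in UV Dose 1, and 0.18, 0.07 and 0.14 in Control, and the 3 groups overlapped. The third, contig10677, had 5.38, 5.45 and 5.37 in UV Dose 2, 5.30, 5.27 and 5.35 in UV Dose 1, and 5.36, 5.29 and 5.44 in Control, where the single Control arrays spanned most of the values of the treated ones.

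The other 7 of the 10 probes with the smallest SD were GYUW2K402I1VRH, GYUW2K402JW4WX, GYUW2K402I6TPB, GYUW2K402HK4BK, GYUW2K401DBFUE, GYUW2K402F9XBO and contig08442, with SD between 0.065 and 0.074. These 10 probes differed widely in level. GYUW2K402I6TPB averaged a y of 0.13, whereas contig08442 averaged 8.09, and its y was 8.11, 8.13 and 8.21 in UV Dose 2, 7.99, 8.08 and 8.14 in UV Dose 1, and 8.14, 7.99 and 8.06 in Control. For GYUW2K401DBFUE both UV groups lay above all Control arrays, with 6.83, 6.88 and 6.88 in UV Dose 2 and 6.78, 6.83 and 6.96 in UV Dose 1, against 6.75, 6.73 and 6.77 in Control.

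The brightest of the 300 probes were GYUW2K401DGEH1, contig12990 and GYUW2K402HLOEY, with mean y of 8.53, 8.37 and 8.32. In Control alone their mean y was 8.49, 8.33 and 8.24. The probes left out for their brightness began at a mean y of 8.57 in Control. GYUW2K401DGEH1 had 8.65, 8.59 and 8.62 in UV Dose 2, 8.39, 8.54 and 8.52 in UV Dose 1, and 8.63, 8.31 and 8.54 in Control. The dimmest were contig22266, contig04216 and contig02719, with mean y of -1.47, -1.23 and -1.21. The first of them had -1.47, -1.25 and -1.65 in UV Dose 2, -1.42, -1.45 and -1.50 in UV Dose 1, and -1.53, -1.60 and -1.36 in Control, so that the UV Dose 2 arrays alone covered the full range of the other groups. Of the 300 brightest probes that had been left out, 9 had an SD at or below that of the last chosen probe, and the median SD of all 300 left out was 0.227.

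Averaged over the 300 probes, the arrays still differed slightly. The mean deviation of the probes from their own 9-array means was 0.061, 0.029 and 0.034 on the UV Dose 2 arrays, -0.074, 0.0089 and -0.0068 on the UV Dose 1 arrays, and -0.00019, -0.041 and -0.012 on the Control arrays. All 3 UV Dose 2 arrays were thus above the mean on the scale of y, and UV Dose 1 replicate 1 was the lowest of the 9. This order depended on the scaling. With Quantile normalization the UV Dose 2 arrays lay below the mean, at -0.040, -0.046 and -0.033. UV Dose 1 replicate 1 was the highest array at the 75th percentile (0.070) and the lowest with SVCD normalization, described below (-0.12). On the scale of y, UV Dose 1 replicate 1 was also the array on which a probe most often lay farthest from its own mean, with 57 of 300 probes. Control replicate 1 followed with 46, UV Dose 2 replicate 1 with 39 and Control replicate 2 with 37. UV Dose 2 replicate 2 had the fewest, with 21. Over the eligible probes the arrays were ordered differently. Their median absolute deviation was 0.21, 0.17 and 0.22 in UV Dose 2, 0.22, 0.24 and 0.15 in UV Dose 1, and 0.35, 0.29 and 0.22 in Control, whereas for the 300 probes it was 0.097, 0.060 and 0.074 in UV Dose 2, 0.092, 0.068 and 0.064 in UV Dose 1, and 0.084, 0.077 and 0.068 in Control.

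**Figure D2:**
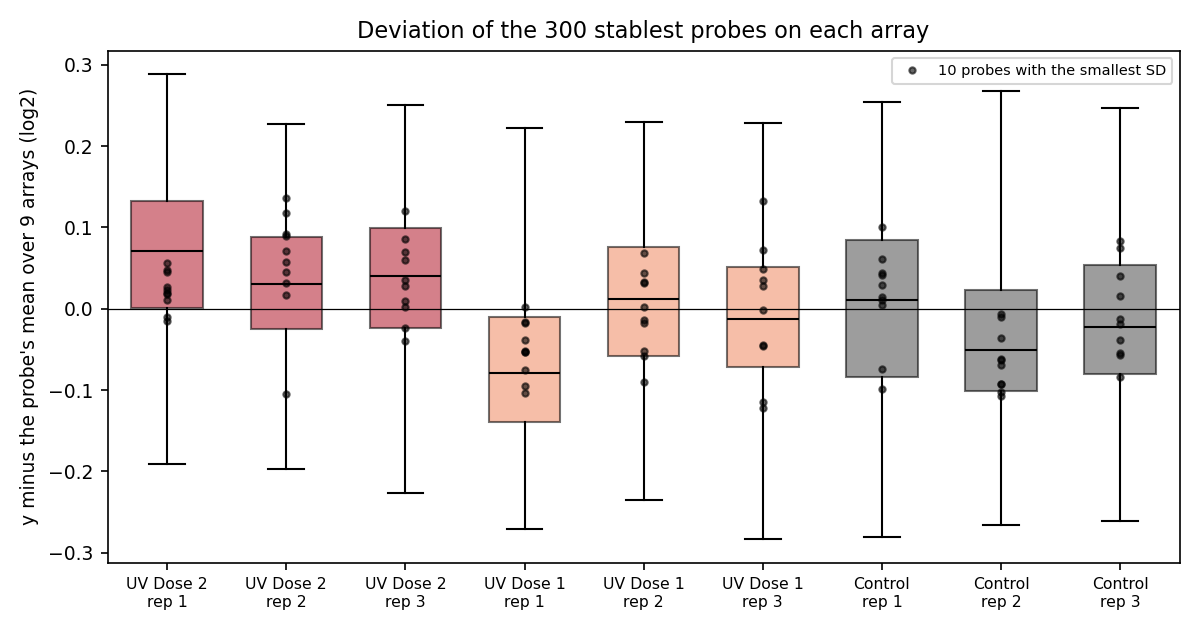
Deviation of each of the 300 stablest probes from its own mean over the 9 arrays (log2, on the scale of y), by array. Boxes give the quartiles and the median, whiskers the lowest and highest probe, and dots the 10 probes with the smallest SD. The UV Dose 2 boxes lie above 0 at their medians, and UV Dose 1 replicate 1 lies lowest, with a mean deviation of -0.074.

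Differences between the groups were small by construction, and their size is given here without a test. UV Dose 2 minus Control had a median of 0.058 over the 300 probes, lower than the 0.139 over all 27856 probes tested. It lay between -0.17 and 0.25, with 231 probes above 0 and 69 below (62.1% of all probes tested above 0). UV Dose 1 minus Control had a median of -0.0040 over the 300 probes and 0.091 over all probes tested. It lay between -0.24 and 0.24, with 145 probes above 0 and 155 below (57.6% of all probes tested above 0). UV Dose 2 minus UV Dose 1 had a median of 0.069 over the 300 probes and 0.071 over all probes tested. It lay between -0.21 and 0.24, with 239 probes above 0 and 61 below (60.9% of all probes tested above 0). For the 300 probes, the first and the last of these medians turn negative when the arrays are scaled to the 75th percentile, with -0.028 and -0.046. The first is negative under every other scaling tried as well (SVCD, MedianCD, quantile, cyclic loess, spike-ins and none). Within slide 4 the median of UV Dose 2 minus UV Dose 1 was 0.12 for the 300 probes and 0.076 for all probes tested, and within slide 2 UV Dose 1 minus Control had a median of 0.042 for the 300 probes and 0.17 for all probes tested. Slide 4 held 1 UV Dose 1 array, replicate 1, which was the lowest of the 9 for these probes on the scale of y. Slide 2 held 1 Control array, replicate 2. No slide held both UV Dose 2 and Control arrays.

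The largest difference of UV Dose 2 from Control was that of contig12950. Its y was 6.04, 6.0 and 6.08 in UV Dose 2 and 5.78, 5.74 and 5.85 in Control, and the UV Dose 1 arrays, at 5.80, 5.87 and 5.90, overlapped Control. UV Dose 2 averaged 0.25 above Control, less than the 0.40 by which the 3 group means of an eligible probe lay apart at the median. The lowest was GYUW2K401C2AIK, with 0.61, 0.68 and 0.48 in UV Dose 2 against 0.73, 0.92 and 0.61 in Control, a difference of -0.17 with 1 Control array inside the UV Dose 2 range. For UV Dose 1, contig14128 lay highest, with 5.41, 5.38 and 5.29 in UV Dose 1 against 5.13, 5.11 and 5.13 in Control, a difference of 0.24. GYUW2K402GR1RL lay lowest, with 1.95, 1.89 and 2.08 in UV Dose 1 against 2.21, 2.19 and 2.24 in Control, a difference of -0.24. In both of these probes all UV Dose 1 arrays fell on one side of all Control arrays.

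Probes whose arrays did not overlap between groups were counted among the 300 and among all probes tested. The 3 UV Dose 2 arrays lay entirely above or below the 3 Control arrays for 64 of the 300 probes, or 21.3%, where the share over all probes tested was 25.5%. Of these, 59 were higher in UV Dose 2 (16.8% of all probes tested) and 5 were lower (8.71% of all probes tested). UV Dose 1 and Control were apart for 39 probes, or 13.0% (23.1% of all probes tested), of which 18 were higher in UV Dose 1 (13.0% of all probes tested) and 21 lower (10.2% of all probes tested). UV Dose 2 and UV Dose 1 were apart for 57 probes, or 19.0% (11.7% of all probes tested), of which 51 were higher in UV Dose 2 (8.66% of all probes tested) and 6 lower (3.08% of all probes tested). These shares rest on the same values as the choice of the probes, and nothing is read from them.

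In limma's moderated test on all 27856 probes after SVCD normalization, which takes the scaling between groups from a set of no-variation genes found in the data, none of the 300 probes passed an adjusted p of 0.05. The comparison of UV Dose 2 with Control called 4.99% of all probes tested, that of UV Dose 1 with Control 5.26%, that of UV Dose 2 with UV Dose 1 0% and the F-test over the 3 groups 4.47%. At an unadjusted p under 0.05, limma's test gave 1, 3 and 0 of the 300 probes in the 3 comparisons, against 18.7%, 19.1% and 3.55% of all probes tested, and the methods' t-test after Benjamini-Hochberg adjustment gave 0, 1 and 0, against 0.962%, 0.538% and 0% of all probes tested. These calls used the values that chose the probes as well. The smallest adjusted p of limma belonged to GYUW2K402HFE5V in both comparisons with Control, with 0.253 for UV Dose 2 and 0.219 for UV Dose 1. Its y was 0.17, 0.20 and 0.16 in UV Dose 2 and 0.14, 0.10 and 0.06 in UV Dose 1, against 0.41, 0.25 and 0.36 in Control.

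On the SVCD scale the 300 probes lay somewhat lower in the UV groups. The median fitted log2 change was -0.12 for UV Dose 2 minus Control (-0.036 over all probes tested), -0.12 for UV Dose 1 minus Control (-0.026 over all probes tested) and 0.012 for UV Dose 2 minus UV Dose 1 (0.014 over all probes tested). The first was positive, at 0.056, with Median normalization, and it changed sign to 0.016 without Control replicate 1, and was -0.23 without UV Dose 2 replicate 2, and the second was -0.028 and -0.27 without the same arrays. The median standard error that limma gave the 300 probes was 0.160, against 0.271 over all probes tested, and 0.098 when it was computed from each probe's own spread alone.

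Whether the stability carried over to an array that played no part in choosing the probes was examined by leaving out each array in turn and choosing 300 probes on the remaining 8. Detection on all 9 arrays was still required. On the array left out, the median absolute distance of these probes from their 8-array mean was 0.161, 0.099 and 0.133 for the UV Dose 2 arrays, 0.179, 0.127 and 0.096 for the UV Dose 1 arrays, and 0.223, 0.176 and 0.122 for the Control arrays. The eligible probes had 0.237, 0.188 and 0.242, then 0.247, 0.267 and 0.170, then 0.394, 0.329 and 0.249 on the same arrays. The probes chosen without an array were thus closer to their mean on it than the eligible probes in 9 of 9 cases, by a factor of between 1.38 (UV Dose 1 replicate 1) and 2.10 (UV Dose 1 replicate 2). The 9 choices share most of their arrays and many probes, so these are not 9 independent cases. The other arrays of the same group, and any others of the same slide, also stayed in each choice. The median absolute deviations of the 300 probes chosen on all 9 arrays were lower on each array, at 0.060 to 0.097. Those are distances from a 9-array mean that includes the array itself, which makes them smaller. The gap is therefore not a measure of lower stability alone.

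**Figure D3:**
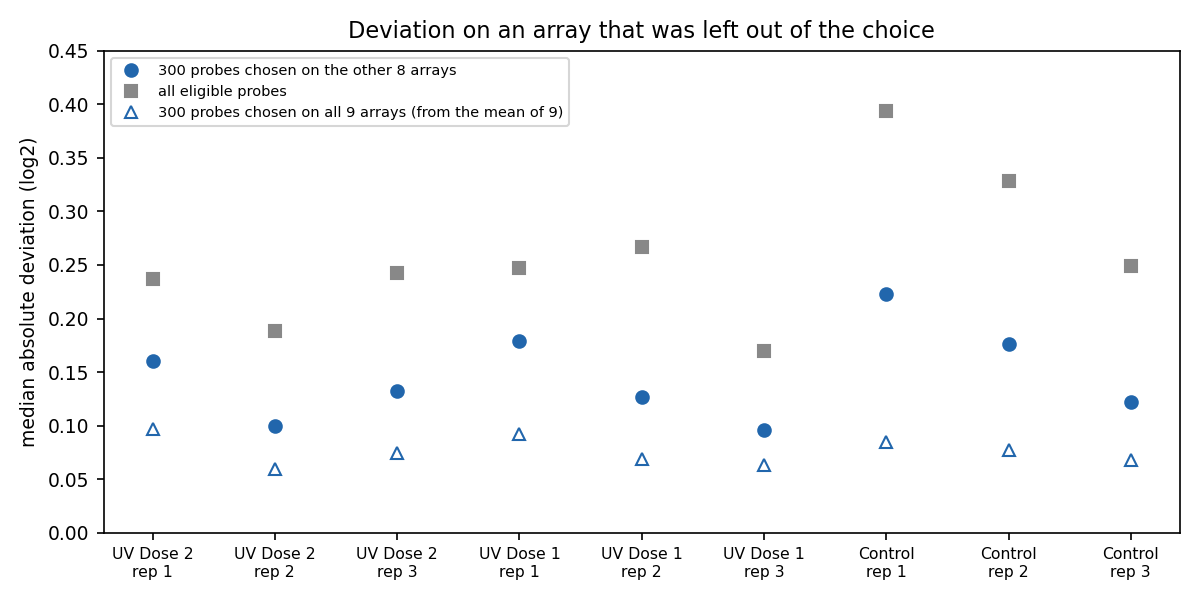
Median absolute deviation (log2) on each array of the 300 probes chosen on the other 8 arrays (filled circles), of all eligible probes (squares), and of the 300 probes chosen on all 9 arrays from their 9-array mean (open triangles). On every array the circles lie below the squares and above the triangles, with the highest circle, 0.223, on Control replicate 1.

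The level of the probes differs between these sets. Among the probes of the 2 brightest of the 5 classes only, the probes chosen without an array had median deviations on it between 0.084 (UV Dose 1 replicate 3) and 0.215 (Control replicate 1), and the eligible probes had between 0.134 and 0.366. The difference narrowed most on UV Dose 1 replicate 1, with 0.193 for the chosen probes against 0.211 for the eligible ones. The chosen probes were the closer ones in 9 of 9 cases, which again share arrays and probes.

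Whole groups were left out in the same way. Of the probes chosen on the other 6 arrays, the median absolute distance of the group mean left out was 0.155 for UV Dose 2 (eligible probes, 0.194), 0.112 for UV Dose 1 (eligible probes, 0.179) and 0.223 for Control (eligible probes, 0.284). The signed medians were 0.15, -0.073 and -0.13 in the same order, with 0.083, -0.026 and -0.066 over the eligible probes. Probes that were even over all 6 UV arrays, with a median SD of 0.075 there, could lie as far as 1.97 from that level in Control. The SD within the group left out was lower than that of the eligible probes in all 3 cases, with medians of 0.132 in UV Dose 2 (eligible probes, 0.212), 0.155 in UV Dose 1 (eligible probes, 0.231) and 0.183 in Control (eligible probes, 0.304).

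Which probes counted as the most stable depended on the arrays used. When 1 array was left out, between 168 (without Control replicate 1) and 257 (without UV Dose 1 replicate 3) of the 300 probes were chosen again, and without Control replicate 2 the number was 193. All 9 of these choices kept 128 probes, among them the 10 with the smallest SD, and no probe with an SD above 0.112 was among the 128. A further 87 probes were kept by fewer than 5 of the 9 choices. Without the 3 arrays of a group, 132 probes were chosen again when UV Dose 2 was left out, 144 when UV Dose 1 was left out and 77 when Control was left out.

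The scaling changed the choice as well. With arrays scaled to the 75th percentile, 181 of the 300 probes were chosen again, with cyclic loess normalization 136, with Quantile normalization 132 and with SVCD normalization 89. MedianCD normalization, which scales the groups on the medians of its own no-variation genes, kept 14, intensities with no normalization kept 31, and scaling to the spike-ins kept 0. The 75th percentile, quantile, cyclic loess and SVCD choices all kept 52 of the 300 probes, 7 of the 10 with the smallest SD among them, whereas none of these 4 scalings kept 76 of the probes. Of other measures of spread, the range over the 9 arrays kept 242 probes, the SD pooled within groups 108 and the median absolute deviation 64. The filters mattered little, with 300 probes chosen again when only positive and significant signals were required, 291 when the brightest probes were kept in and 294 when the authors' deposited table replaced the scanner values. The background correction mattered more. When normexp background correction replaced that of the scanner software, 35 were chosen again.

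**Figure D4:**
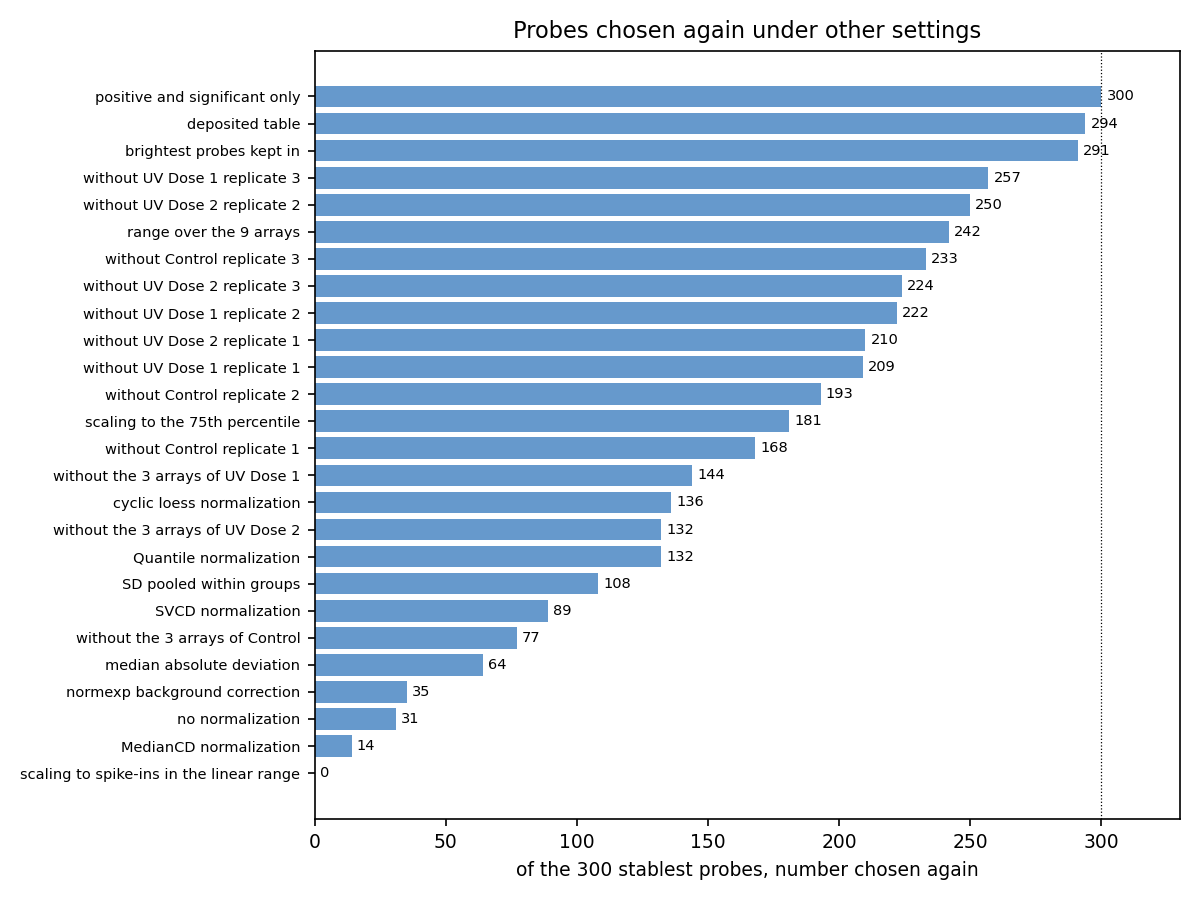
Number of the 300 stablest probes that were chosen again (horizontal axis, from 0) under each other setting, sorted. The dotted line marks 300. Filters kept 291 or more, single arrays left out kept 168 to 257, and scalings kept between 0 (spike-ins) and 181 (75th percentile). Normexp background correction kept 35.

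The same scalings moved the 300 probes together. The mean of the 300 probes on an array, relative to its mean over the 9 arrays, lay between -0.076 and 0.060 after Median normalization, between -0.058 and 0.070 at the 75th percentile, between -0.046 and 0.057 with Quantile normalization, and between -0.12 (UV Dose 1 replicate 1) and 0.19 (Control replicate 2) with SVCD normalization. With MedianCD normalization it was -0.059, -0.091 and -0.086 on the UV Dose 2 arrays and -0.20, -0.11 and -0.13 on the UV Dose 1 arrays, against 0.24, 0.20 and 0.23 on the Control arrays, so that the UV arrays and the Control arrays did not overlap. MedianCD normalization also moved the median of all probes tested, by -0.23 for UV Dose 2 minus Control and -0.28 for UV Dose 1 minus Control, and limma called 6 of the 300 probes in the second comparison on that scale (2%, against 9.79% of all probes tested) and 0 in the first (7.22% of all probes tested). With no normalization the means spanned -0.21 (Control replicate 1) to 0.27 (Control replicate 3), both within Control.

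**Figure D5:**
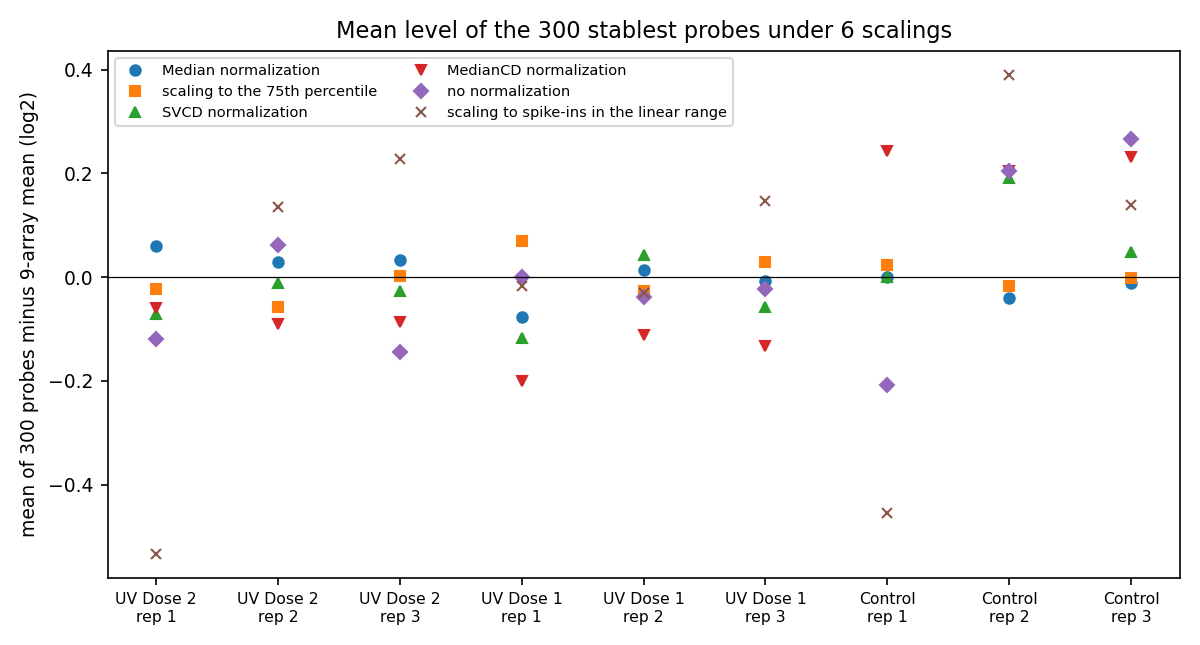
Mean of the 300 stablest probes on each array minus its mean over the 9 arrays (log2) under 6 scalings, with 1 marker shape for each scaling. Median and 75th percentile scaling stay between -0.076 and 0.070, MedianCD normalization places all Control arrays at or above 0.20, and the spike-in scaling ranges from -0.53 to 0.39.

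The sets of no-variation genes that the condition-decomposition methods find were compared with the 300 probes. The SVCD set held 9461 of the 27856 probes tested, or 34.0%, and 89 of the 300 probes, or 29.7%. The MedianCD set held 5920, or 21.3%, and 0 of the 300 probes. No-variation genes are picked by the p-values of a test that divides the differences between groups by the spread within groups. A small SD thus does not by itself place a probe in such a set, since a small spread within groups lowers the p-value of a given group difference. On the MedianCD scale the 300 probes had median log2 changes of -0.31 for UV Dose 2 and -0.37 for UV Dose 1 against Control. All probes tested had -0.23 and -0.28. The cause of these counts was not tested. Both sets come from the arrays that chose the 300 probes.

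Spike-ins, synthetic transcripts added in known relative amounts to each RNA sample before labelling, gave a measure of error that the choice had not used. There were 10 of them with 32 spots each, and 8 lay in the linear range of the scan on all arrays. Repeat spots of these 8 on the same array had SD between 0.032 and 0.193, with a median of 0.068. Between arrays, the 8 spike-ins had SD of 0.277 to 0.404 on the median scale, and of 0.163 to 0.335 when the array median was not subtracted. That median is taken over worm probes, so the first values also hold its differences between arrays. The eligible probes, with a median SD of 0.336, are centred on their own kind of probe, so the SD of the 2 are not like measures. The 300 probes were chosen for an SD of at most 0.125 on the median scale, so their own SD is not set against these values. The error that the scanner software attached to each signal had a median of 10.003% of the signal for the 300 probes and 10.1% for the eligible probes. The coefficient of variation of the linear y over the 9 arrays had a median of 7.65% for the 300 probes, a value that the choice keeps low, and of 23.0% for the eligible probes, of which 3.79% lay below the software's error.

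Relative to the 8 spike-ins, the mean log2 intensity of the 300 probes was -4.19, -3.52 and -3.43 in UV Dose 2, -3.67, -3.69 and -3.51 in UV Dose 1, and -4.11, -3.26 and -3.52 in Control. UV Dose 2 replicate 1 and Control replicate 1 lay well below the other 7 arrays, and the 3 groups overlapped. The means were -3.71 ± 0.41 in UV Dose 2, -3.62 ± 0.10 in UV Dose 1 and -3.63 ± 0.43 in Control (SD, n = 3 each). Over the 3 pairs of groups, two-sided exact permutation tests gave p = 0.7 for UV Dose 2 minus Control (difference -0.081), p = 0.9 for UV Dose 1 minus Control (difference 0.0080) and p = 0.9 for UV Dose 2 minus UV Dose 1 (difference -0.089), and all were 0.9 after Benjamini-Hochberg adjustment. With 3 arrays against 3, such a test cannot give a p below 0.1. The first difference was -0.32 without Control replicate 1, 0.10 without Control replicate 2 and 0.16 without UV Dose 2 replicate 1. The second was -0.23 without Control replicate 1, 0.19 without Control replicate 2 and -0.049 without UV Dose 1 replicate 3, and the third was 0.15 without UV Dose 2 replicate 1. The choice kept the 300 probes at a nearly fixed distance from the array median. Their level here therefore mostly follows that median, and nothing about these probes is read from the tests. Scaled to the same spike-ins, the median log2 change over all probes tested was -0.0019 for UV Dose 2 minus Control. It was 0.105 for UV Dose 1 minus Control and -0.084 for UV Dose 2 minus UV Dose 1.

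Further properties of the probes played no part in the choice. Contigs made up 46.3% of the 300 probes (139 contigs and 161 single reads), 46.2% of the eligible probes and 50.5% of all probes tested. The array has 532 rows and 85 columns of spots, and 56.3% of the 300 probes lay in rows 1 to 266 (eligible probes, 50.7%) and 55.7% in columns 1 to 42 (eligible probes, 49.8%). The outermost 5 columns on either side held 13.7% of them (eligible probes, 10.68%). The median spot background was 34.9 intensity units in both sets, the median width of the spots was 49.1 pixels against 48.9, and the median SD of the background pixels was 6.53 against 6.57. No probe among the 300 carried an outlier flag on any array. None of these differences was tested.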

How the data were processed

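Of each of the 9 arrays, the processed intensity was used as the authors deposited it in the scanner output of Agilent Feature Extraction 10.7.3.1, which had subtracted the background, together with the software's error, the median spot and background intensity, spot width and flags (other columns), per the file headers. The deposited table of the whole series repeats these intensities within 0.497% and was used as an alternative. Groups followed the sample titles. The members and all settings were chosen with earlier results of these data known. The probes tested were positive and significant on all 9 arrays and carried no outlier flag for spot or background (79 probes left out, 27856 kept). They were normalized with SVCD (1% variance trim, Kolmogorov-Smirnov level 0.001) after the methods of the study, and fitted in limma 3.58.1 (R 4.3.3) on group means with Benjamini-Hochberg adjustment over all probes and a threshold of 0.05. The steps were tested on simulated data. Arrays are separate pools, with 3 per group. Mean levels relative to the spike-ins were set against each other with two-sided exact permutation tests over arrays. The probes named are the 10 with the smallest SD, the 3 brightest and 3 dimmest, the most extreme differences from Control and the 3 on either side of the threshold, the last without their identifiers. No lists of reference genes could be used, since the probes carry no gene names here. Alternatives were other normalizations, normexp background correction (on the median spot intensity with an offset of 50, as no mean was used here), filters, blocks for slide and replicate number, measures of spread, and arrays or groups left out. The choices on 6 arrays, the held-out deviations under other scalings or within bright probes and the counts over several settings together were added after seeing the data. No probe sequences were used.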

Additional observations from a re-analysis of the deposited data

Results flagged for a closer look

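GYUW2K402G00G5, the probe with the smallest SD of all (0.041), was the 1 probe of the 300 whose UV groups lay on opposite sides of Control with no overlap. Its y averaged 5.83 ± 0.026 in UV Dose 2, 5.75 ± 0.022 in UV Dose 1 and 5.78 ± 0.013 in Control (SD, n = 3 each). Of all probes tested, 0.0538% showed such a pattern in either direction. The difference between the doses was not tested on this scale, which had chosen the probe. On the SVCD scale limma gave a log2 change of 0.026 between the doses, with an adjusted p of 1, and of -0.13 and -0.15 for UV Dose 2 and UV Dose 1 against Control, where the opposite sides were no longer seen. On the scale of y, its mean differed from Control by 0.048 in UV Dose 2 and by -0.036 in UV Dose 1. Repeat spots of spike-ins on the same array had a median SD of 0.068. That is a spread between single spots, and not a like measure to a difference between means of 3 arrays. All 3 UV Dose 2 arrays lay on slide 4, which held no Control array. Groups of 3 arrays were not searched for single outlying arrays.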

How the results depend on the processing

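None of the 300 probes was called in any comparison under any setting tried, except 6 for UV Dose 1 against Control with MedianCD normalization (2% of the 300, against 9.79% of all probes tested) and 1 with the methods' t-test in the same comparison (0.333%, against 0.538% of all probes tested); with single arrays left out the counts stayed at 0. Adding the replicate number as a block gave 0 called probes in each comparison and medians of -0.12, -0.12 and 0.012, so that this block changed no call among the 300 probes, while over all probes 1696 were called with it and 1389 without it for UV Dose 2 against Control, and 1813 and 1464 for UV Dose 1 against Control. Deviations of same-numbered arrays correlated between 0.028 and 0.56, not all above 0.1, and the arrays were taken to share only a number. With slide as a fixed block, 0 and 22 of all probes were called in the same 2 comparisons.

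The median log2 change of the 300 probes for UV Dose 2 minus Control (-0.12) became 0.056 with Median normalization, -0.31 with MedianCD and -0.028 at the 75th percentile. For UV Dose 1 minus Control (-0.12) it became -0.0033 with Median, -0.00088 with Quantile, -0.37 with MedianCD, 0.025 at the 75th percentile, 0.010 with spike-ins, -0.024 with cyclic loess and -0.20 with slide as a fixed block. For UV Dose 2 minus UV Dose 1 (0.012) it became -0.086 with spike-ins, -0.056 with Quantile, -0.048 with cyclic loess, -0.046 at the 75th percentile, -0.043 with no normalization, -0.048 with normexp, 0.067 with Median, 0.073 with MedianCD and 0.090 with slide as a fixed block. With single arrays left out, these medians ranged from -0.23 to 0.016, from -0.27 to -0.028 and from -0.018 to 0.047. The median SD of the 300 probes (0.111) was 0.130 with SVCD, 0.199 with MedianCD, 0.320 with spike-ins and 0.181 with no normalization, and 0.106 to 0.114 with single arrays left out.

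Of the 300 probes, 181 were chosen again at the 75th percentile, 136 with cyclic loess, 132 with Quantile, 89 with SVCD, 31 with no normalization, 14 with MedianCD, 0 with spike-ins, 108 with the SD within groups, 64 with the median absolute deviation, 35 with normexp, 132, 144 and 77 without UV Dose 2, UV Dose 1 and Control, and 168 to 257 with single arrays left out. Relative to all 10 spike-ins, UV Dose 1 minus Control turned to -0.038. With single arrays left out, the differences relative to spike-ins ranged from -0.32 to 0.16 for UV Dose 2 minus Control, from -0.23 to 0.19 for UV Dose 1 minus Control and from -0.23 to 0.15 for UV Dose 2 minus UV Dose 1. The cause of these changes was not tested. Held-out deviations (0.133 at the median over arrays) were 0.097 at the 75th percentile and 0.114 with SVCD. The number of arrays limits all these values.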
